A study of Mus musculus with 48 samples.

Results

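Fatty acids reach a fat cell in steps, and 10 genes that carry those steps were followed through the differentiation of mouse preadipocytes and mouse embryonic fibroblasts (MEFs) with and without the chromatin proteins HMGN1 and HMGN2. The genes were chosen by name, for their known roles, and were all found among the 55450 genes of each deposited table. RNA was sequenced from wild-type (WT) cells and from cells of Hmgn1-/- Hmgn2-/- mice (DKO), both on the C57BL/6 background, with 3 libraries per group and 48 libraries in all. The preadipocytes came from inguinal white adipose tissue (iWAT) of young adult mice and were collected at days 0, 3, 6 and 9. The MEFs came from mid-gestation embryos and were collected at days 4, 8 and 12 beside day 0. All cells after day 0, WT and DKO alike, had received the same browning cocktail of insulin, dexamethasone, IBMX, T3 and rosiglitazone, an agonist of the nuclear receptor PPARG, so that no differentiating cells without the cocktail were compared. Preadipocytes received the full cocktail for 4 days and MEFs for 8 days before a maintenance medium. The deletion is carried by every cell of the DKO animals from conception. The sources name the replicates as biological but do not say which animals or cultures they come from, so the p-values measure the spread between these libraries, which may be partly technical.

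Circulating triglyceride is first split by lipoprotein lipase (Lpl), which acts at the vessel wall on an anchor protein of capillary endothelial cells, GPIHBP1. The VLDL receptor (Vldlr) and LRP1, members of the LDL receptor family, bind apolipoprotein E-containing particles, and LRP1 also takes up many other ligands. Released fatty acids cross the plasma membrane with the help of CD36 and of FATP1 (Slc27a1), and ACSL1 traps them in the cell as acyl-CoA esters. Inside the cell they are carried by small fatty acid-binding proteins, of which FABP4 is the abundant form of adipocytes, FABP5 is broadly expressed and FABP3 is the form best known from heart and oxidative muscle and is also made in brown fat. Lpl, Cd36, Slc27a1, Acsl1 and Fabp4 are well-known targets of PPARG. Cd36, Lpl, Fabp4 and Fabp5 are also expressed by macrophages.

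Each library held between 18962483 and 36006696 counts in all. Hmgn2, the deleted gene that counts per gene can resolve, was called lower in DKO cells in all 8 comparisons with WT cells, with 0 to 10 counts in the DKO libraries. Hmgn1 was lower by 0.05 to 1.14 and was called in 2 of the 8, and as counts per gene do not tell its deleted parts from the rest it checks the labels poorly. The spread between the 3 libraries of a group was wide in MEFs at days 4 and 8, where WT replicate 1 and DKO replicate 3 stood high at day 4 and WT replicate 2 and DKO replicate 3 stood low at day 8 in the level of adipocyte genes. The sum of 18 general adipocyte markers, such as Adipoq, Plin1 and Pnpla2, ran from 331 to 1821 CPM (counts per 1000000, scaled between libraries by the trimmed mean of M values) in WT MEFs at day 4 and from 1049 to 7043 CPM in DKO MEFs at day 8. In preadipocytes at day 3, WT replicate 1 had the lowest sum, 308 CPM against 724 and 951 CPM in the other two. Level comparisons between genes below are per kilobase of the principal transcript, and all other levels are CPM.

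The lipase rose over the course in both cell types and both genotypes. Lpl (ENSMUSG00000015568.16, chr8:68880491-68907448 on the plus strand, mm10, 10 exons) stood at 405, 140 and 336 CPM in the WT preadipocyte libraries at day 0 and at 212, 836 and 395 CPM in the DKO libraries. By day 9 it had reached 6722, 6916 and 7575 CPM in WT cells against 8770, 9257 and 10664 CPM in DKO cells. Day 9 and day 0 libraries did not overlap in either genotype, and at day 9 each DKO library exceeded each WT library. The rise over the course was 4.61 ± 0.54 (log2 fold change ± SE) in WT and 4.32 ± 0.43 in DKO preadipocytes. In MEFs, Lpl was already at 977 ± 102 CPM in WT cells (mean ± SD, n = 3) at day 0, against 1828 ± 298 CPM where both proteins were absent, with no overlap, and by day 12 it was at 6634 ± 175 and 9001 ± 393 CPM. Its anchor, Gpihbp1 (ENSMUSG00000022579.10, chr15:75596628-75599481, plus strand), was at or near 0 throughout, with 0 to 6 counts in the preadipocyte libraries and 0 counts in 23 of the 24 MEF libraries. It passed no filter on low counts and no comparison of it was possible. The 12 endothelial markers together reached 10.3 to 44.3 CPM in any library, and Sox17 had no count in any MEF library.

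The lipoprotein receptors moved little beside the lipase, and in opposite directions. Vldlr (ENSMUSG00000024924.14, chr19:27216484-27254231, plus strand, 19 exons) rose in preadipocytes by 2.0 ± 0.12 on the log2 scale between days 0 and 9 in WT cells and by 2.24 ± 0.17 in DKO cells, from 59.1 ± 1.94 to 234 ± 14.0 CPM and from 61.9 ± 5.91 to 290 ± 29.6 CPM. In MEFs it rose by 1.63 ± 0.24 between days 0 and 12 in DKO cells, while the change of 0.65 ± 0.25 in WT cells missed the threshold (edgeR quasi-likelihood adjusted p = 0.0612). Lrp1 (ENSMUSG00000040249.15, chr10:127538161-127621148, minus strand, 89 exons) went from 3440 ± 317 CPM at day 0 to 5471 ± 182 CPM at day 3 in WT preadipocytes, and then fell to 1901 ± 122 CPM at day 9. The net change was -0.84 ± 0.11 in WT and -1.37 ± 0.14 in DKO preadipocytes. In MEFs, Lrp1 declined by less than 1.5-fold in both genotypes, to 2718 ± 110 CPM in WT and to 2108 ± 106 CPM in the DKO cells at day 12.

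Cd36 had one of the widest ranges of the 10 genes. Cd36 (ENSMUSG00000002944.15, chr5:17781690-17888801, minus strand, 15 exons) was at 4.63, 1.40 and 1.26 CPM in WT preadipocytes at day 0 and at 5.36, 3.24 and 0.758 CPM in DKO preadipocytes. At day 9 it was at 3415, 3356 and 3319 CPM in WT cells and at 4526, 4599 and 4792 CPM in DKO cells. All DKO libraries were above all WT libraries at day 9, and the groups overlapped at day 0. The rise was 10.43 ± 0.77 in WT and 10.50 ± 0.61 in DKO preadipocytes on the log2 scale. MEFs began higher, at 56.5 ± 12.1 CPM in WT cells against 113 ± 68.9 CPM in DKO cells, and rose by 5.39 ± 0.54 and 5.11 ± 0.65. Slc27a1 (ENSMUSG00000031808.7, chr8:71568882-71587302, plus strand) rose by 4.32 ± 0.23 and 4.20 ± 0.29 in WT and DKO preadipocytes and by 2.21 ± 0.64 and 3.57 ± 0.81 in WT and DKO MEFs. In WT preadipocytes it started late, with 9.91 ± 1.27 CPM at day 0, 12.6 ± 3.50 CPM at day 3 and 163 ± 39.9 CPM at day 6. Acsl1 (ENSMUSG00000018796.13, chr8:46471037-46536051, plus strand) rose from 12.7 ± 0.400 to 2620 ± 155 CPM in WT and from 14.4 ± 4.65 to 3656 ± 343 CPM in DKO preadipocytes, by 7.71 ± 0.45 and 7.99 ± 0.31, and in MEFs by 6.58 ± 1.00 and 7.35 ± 0.84.

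Promoter sequence was at hand for 6 of the 10 genes, from RefSeq on GRCm38.p6, as the 250 bases before each start in that annotation, which need not be the outer end of the gene given above. The Cd36 stretch lies inside the gene, before an internal start. The larger part of the Fabp3 stretch also lies inside its gene, from the gene's outer end at 130308595 to 130308737. Of the 10 promoters of these 6 genes (Cd36, Fabp3, Slc27a1, Vldlr, Acsl1 and Lrp1), only that of Cd36 held the PPAR element, a direct repeat of AGGTCA with 1 base between, on either strand with at most 3 mismatches in the repeat, and only 1 of Vldlr held the C/EBP element TTGCNNAA. The direct repeat was found in 21.3% and the C/EBP element in 9.56% of all 32851 promoters of this length. TATAAA, found in 12.4% of promoters, was in none of the 10. The promoter of Fabp3, the gene whose course departed most from the others, is set beside them and held none of these motifs. Capitals mark the matches, which lie on the minus strand of each promoter as printed, 5′ to 3′ towards the start, at 228 to 216 and 63 to 51 bases before the start in Cd36 (3 and 2 mismatches) and at 116 to 109 bases in Vldlr. A match describes the letters and does not show a bound site. The promoters lie at chr5:17835897-17836146 (minus strand, Cd36), chr19:27216234-27216483 (plus strand, Vldlr) and chr4:130308488-130308737 (plus strand, Fabp3).
Cd36: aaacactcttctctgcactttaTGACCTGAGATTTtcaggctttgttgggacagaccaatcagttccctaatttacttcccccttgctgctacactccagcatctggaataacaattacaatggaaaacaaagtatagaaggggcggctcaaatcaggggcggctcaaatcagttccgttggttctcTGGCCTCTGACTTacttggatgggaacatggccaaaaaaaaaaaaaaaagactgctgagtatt
Vldlr: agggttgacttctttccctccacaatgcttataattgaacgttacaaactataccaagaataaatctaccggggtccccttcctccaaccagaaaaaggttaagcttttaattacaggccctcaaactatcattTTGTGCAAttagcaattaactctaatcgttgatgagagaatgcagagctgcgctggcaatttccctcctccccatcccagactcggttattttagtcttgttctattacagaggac
Fabp3: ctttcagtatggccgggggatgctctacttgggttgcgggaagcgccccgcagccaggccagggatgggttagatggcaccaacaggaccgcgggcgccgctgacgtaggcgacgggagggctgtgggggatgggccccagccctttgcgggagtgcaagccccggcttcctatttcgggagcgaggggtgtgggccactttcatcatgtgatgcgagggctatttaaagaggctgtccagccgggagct

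After day 0 the binding proteins held both the most abundant and the least abundant tested gene of the 10 per kilobase, Fabp4 and Fabp3, in each group. Fabp4 (ENSMUSG00000062515.3, chr3:10204088-10208576, minus strand, 4 exons) went from 7.67, 5.43 and 8.16 CPM in WT preadipocytes at day 0 to 13552, 13801 and 13599 CPM at day 9, and from 5.77, 18.2 and 4.24 CPM to 18204, 16180 and 21561 CPM in DKO preadipocytes. At days 6 and 9 it ranked 3 by count among all genes in every preadipocyte library of both genotypes. Its rise was 10.93 ± 0.57 in WT and 10.96 ± 0.65 in DKO preadipocytes, and 9.14 ± 1.14 and 8.53 ± 1.04 in MEFs. Fabp5 (ENSMUSG00000027533.10, chr3:10012548-10016607, plus strand, 4 exons) lies in the same gene cluster on chromosome 3. It rose by 5.61 ± 0.44 and 6.22 ± 0.23 in WT and DKO preadipocytes and by 1.57 ± 0.47 and 3.14 ± 0.46 in WT and DKO MEFs. Between them in the cluster, Pmp2 reached at most 67 counts and Fabp9 at most 2 counts in any preadipocyte library. Values of Fabp5 were not whole in 42 of the 48 libraries, and which other genes or transcripts shared its divided reads was not determined.

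Fabp3 (ENSMUSG00000028773.8, chr4:130308595-130315463, plus strand, 4 exons) had a course of its own. In WT preadipocytes it went from 13.4, 13.9 and 8.91 CPM at day 0 to 0.704, 0.512 and 0.267 CPM at day 3, rose to 3.46, 2.31 and 2.48 CPM at day 6 and fell to 0.781, 1.11 and 1.04 CPM at day 9. In DKO preadipocytes it went from 13.6, 8.45 and 14.7 CPM to 0.235, 0.579 and 0.474 CPM, rose to 12.1, 7.45 and 11.5 CPM and stood at 5.2, 1.71 and 5.59 CPM at day 9. The genotypes overlapped at days 0 and 3 and were apart at days 6 and 9. The drop over the first 3 days was -4.63 ± 0.33 on the log2 scale in WT and -4.80 ± 0.51 in DKO cells, and the rise over the next 3 was 2.52 ± 0.33 and 4.60 ± 0.51. The later drop was -1.48 ± 0.31 in WT cells. In DKO cells it was -1.34 ± 0.41, with an adjusted p of 0.0505 in edgeR's quasi-likelihood test and of 0.0176 with the replicate number as a block. Muscle markers, led by Acta1, summed to 92.0 to 192 CPM at day 0 and to at most 8.71 CPM at day 3 in preadipocytes, and 4 to 6 of the 12, Myod1 and Myf5 among them, had no count in any library of a group on those days. Their part in the early course of Fabp3 was not tested. In MEFs, Fabp3 showed no net change between days 0 and 12 past the threshold, with 0.29 ± 0.61 in WT and 0.06 ± 0.73 in DKO cells.

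**Figure D1:**
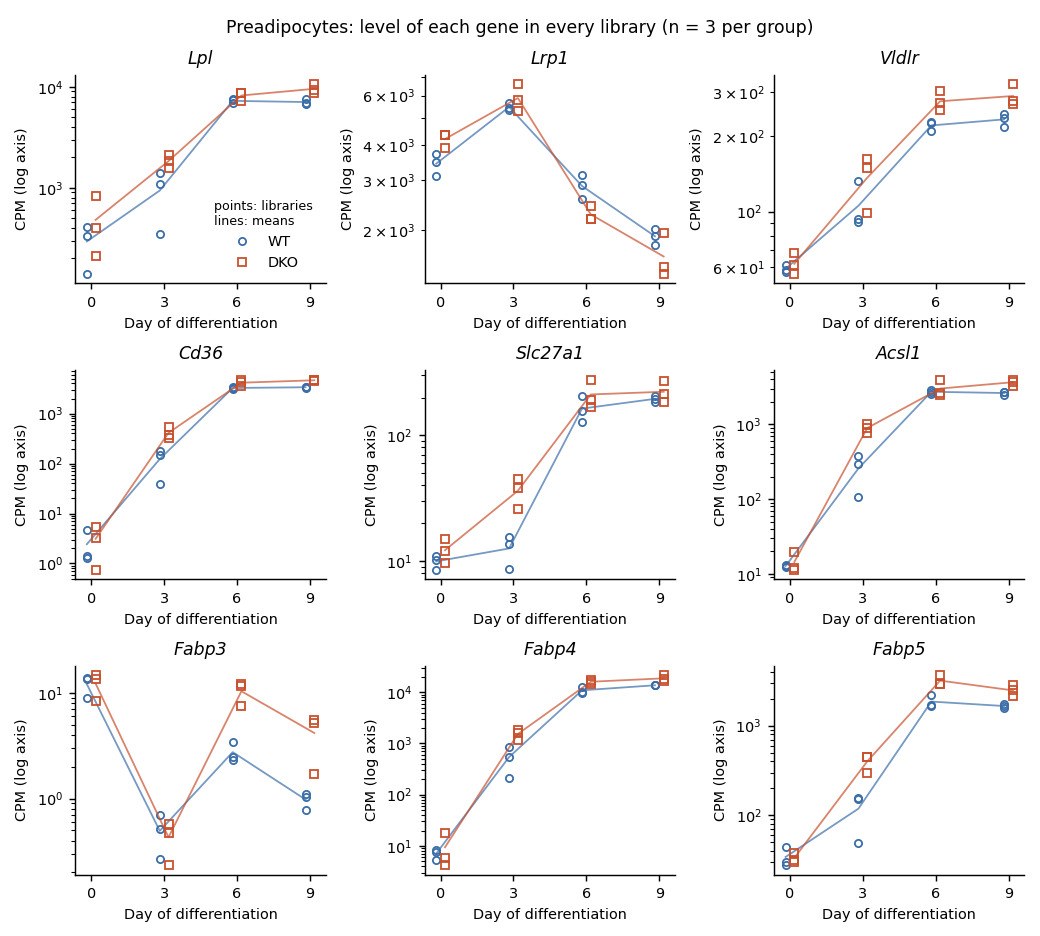
Level of 9 of the 10 genes in each preadipocyte library (CPM, log axis) against the day of differentiation, with circles for WT, squares for DKO and lines through the means of 3 libraries. Lpl, Cd36, Slc27a1, Acsl1, Fabp4 and Fabp5 climbed to a plateau at day 6, Lrp1 peaked at day 3, and Fabp3 fell to under 1 CPM at day 3 before it returned, with DKO libraries at 7.45 to 12.1 CPM and WT libraries at 2.31 to 3.46 CPM at day 6.

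Counted over the course, all 9 tested genes passed the threshold between days 0 and 9 in WT preadipocytes, 7 higher and 2 lower (Lrp1 and Fabp3). Of all genes tested, 52.7% were called in that comparison, 25.8% higher and 27% lower. The counts were the same in DKO preadipocytes, where 55.6% of all genes were called, 26.6% higher and 29% lower. From day 6 to day 9 there was little further movement, with 2 of the 9 called in WT cells (Fabp3 and Lrp1, both lower) beside 14% of all genes called and 5.22% called lower. In DKO cells none of the 9 was called beside 9.05% of all genes, while 2 of the 9 (Fabp3 and Lrp1) had an unadjusted p under 0.05, beside 30.8% of all genes. With the replicate number as a block 1 of the 9, Fabp3, was called there, and by DESeq2 and limma-voom it was 1 as well. Without DKO replicate 2 at day 9 the count was also 1. Markers of other cells moved over the same course. The 12 macrophage markers summed to 145 to 507 CPM at day 0, 71.4 to 263 CPM at day 3, 7670 to 12675 CPM at day 6 and 3758 to 7670 CPM at day 9 in WT preadipocytes, and fibroblast and progenitor markers went from 21315 to 22441 CPM at day 0 to 10898 to 11540 CPM at day 9. In WT MEFs the macrophage markers summed to 8352 to 10367 CPM at day 0 and to 5954 to 5989 CPM at day 12. The part of these cells in the course of Cd36, Lpl, Fabp4 and Fabp5, which macrophages also express, was not tested.

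In MEFs, 6 of the 9 were called higher between days 0 and 12 in WT cells (Fabp4, Acsl1, Cd36, Lpl, Slc27a1 and Fabp5), beside 12.5% of all genes called higher and 26.3% called in either direction. In DKO MEFs it was 7, with Vldlr in addition, beside 15.6% called higher and 25.6% in either direction. The first step, to day 4, held 5 calls in each genotype, beside 33.2% of all genes in WT and 26.1% in DKO cells. Cd36, Fabp4, Acsl1 and Vldlr were called in both, Lpl in WT cells and Fabp5 in DKO cells. Without DKO replicate 2 or DKO replicate 3 at day 0 the DKO count was 3. Between days 4 and 8 edgeR called none of the 9 in either genotype, beside 1.72% of all genes in WT and 0% in DKO cells. An unadjusted p under 0.05 was found for 4 of the 9 in WT (28% of all genes) and 2 in DKO cells (11.7% of all genes), DESeq2 called 1 in WT and none in DKO cells, and limma-voom called none. That step rested on single libraries, since without WT replicate 1 at day 4 the WT count was 7, without WT replicate 2 at day 8 it was 3, and without DKO replicate 3 at day 8 the DKO count was 1. Between days 8 and 12 the calls were Cd36 and Fabp3 in WT cells, both higher, beside 21.2% of all genes called and 12.5% called higher, and Vldlr in DKO cells, higher, beside 21.7% and 14.5%. With any 1 library left out the WT count was 1, and the DKO count was 0 or 1.

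**Figure D2:**
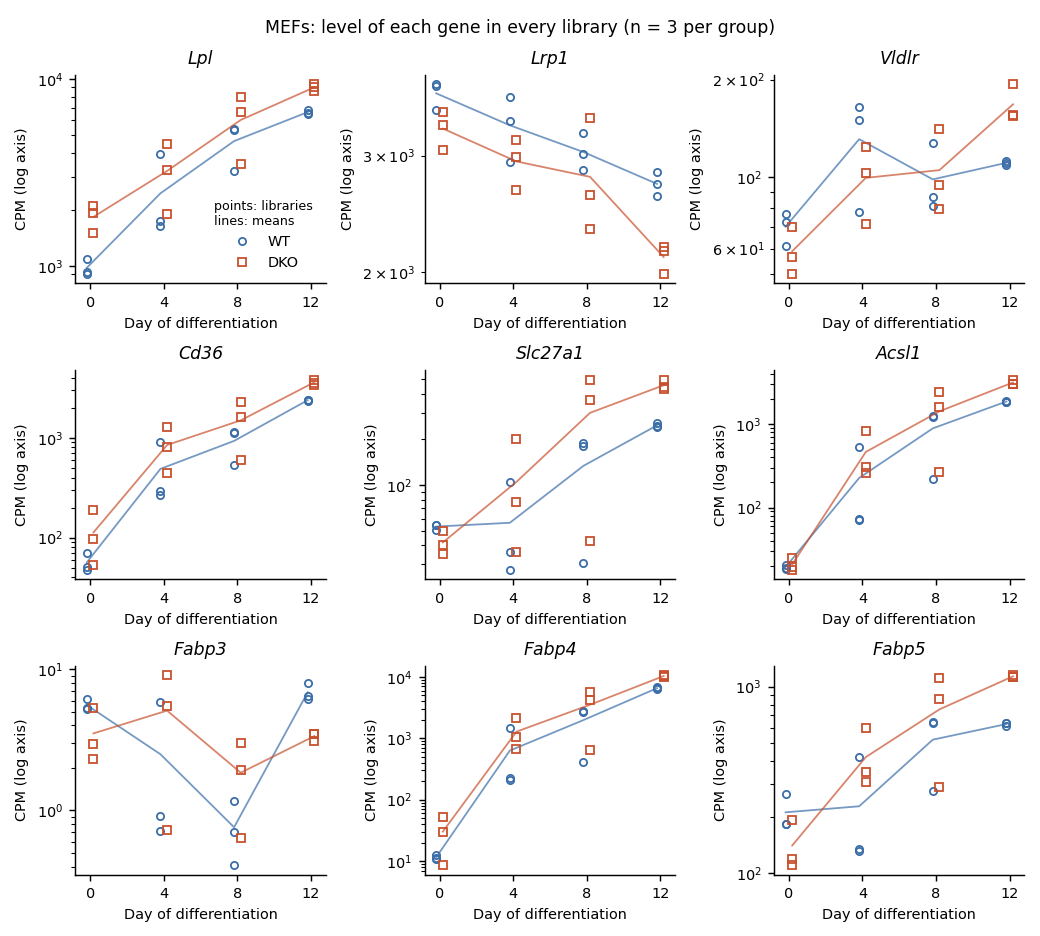
Level of 9 of the 10 genes in each MEF library (CPM, log axis) against the day of differentiation, with circles for WT, squares for DKO and lines through the means of 3 libraries. The libraries of days 4 and 8 are spread widely, as for Fabp4 in WT cells at day 8, between 406 and 2824 CPM, while those of day 12 lie close together and the DKO libraries are higher for Lpl, Vldlr, Cd36, Slc27a1, Acsl1, Fabp4 and Fabp5 and lower for Lrp1 and Fabp3.

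Per kilobase of transcript, the order of the genes turned over with differentiation. At day 0 in WT preadipocytes Lrp1 was first (231 ± 21.3 CPM per kilobase) and Lpl second (71.4 ± 33.5), followed by Fabp5 (34.8 ± 9.29), Fabp3 (14.7 ± 3.35), Fabp4 (7.91 ± 1.63) and Vldlr (7.41 ± 0.244). Lpl and Fabp5 overlapped there, Fabp4 and Vldlr did not differ beyond their spread, and neither did Slc27a1 and Acsl1, next in order, at 3.54 ± 0.453 and 3.26 ± 0.103. At day 9 in WT preadipocytes Fabp4 was far ahead, at 15235 ± 148 CPM per kilobase. Lpl (1718 ± 109) and Fabp5 (1677 ± 94.3) came next and did not differ beyond their spread. Cd36 (989 ± 14.2), Acsl1 (672 ± 39.7), Lrp1 (128 ± 8.17), Slc27a1 (69.8 ± 3.81), Vldlr (29.4 ± 1.75) and Fabp3 (1.19 ± 0.211) followed, each clear of its neighbours. MEFs ended in nearly the same order, with Fabp4 first at 7319 ± 220 in WT cells at day 12 and 11529 ± 408 in DKO cells, and with Fabp3 last of the tested genes, at 8.34 ± 1.19 and 4.08 ± 0.251. Slc27a1 stood above Lrp1 in DKO MEFs (163 ± 12.8 against 142 ± 7.09 CPM per kilobase) and below it in WT MEFs (88.7 ± 2.77 against 183 ± 7.41).

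Across the 24 preadipocyte libraries, the log2 levels of Lpl, Cd36, Slc27a1, Acsl1, Fabp4, Fabp5 and Vldlr ran together, with Pearson correlations from 0.907 (Acsl1 and Slc27a1) to 0.996 (Acsl1 and Fabp4). In MEFs Vldlr did not run as closely with the other 6, at 0.254 with Slc27a1 to 0.563 with Cd36, while those 6 correlated with each other from 0.801 (Fabp4 and Slc27a1) upwards. Lrp1 ran against all of these genes in both cell types. The values were -0.532 (Acsl1) to -0.781 (Slc27a1) in preadipocytes and -0.453 (Vldlr) to -0.890 (Lpl) in MEFs. Fabp3 correlated weakly or negatively with these genes in preadipocytes, from -0.433 with Acsl1 to -0.095 with Slc27a1. These libraries share days and genotypes, so the values describe the course and carry no test. Among 13050 other genes, the most alike by the mean correlation over the 24 preadipocyte and 24 MEF libraries were Pnpla2 and Gpd1 for Cd36 (0.99 each), Cdo1 and Pnpla2 for Fabp4 (0.99 each), Pnpla2 for Acsl1 (0.99) and Apmap and Gpam for Fabp5 (0.99 and 0.98). Agpat2 and Adhfe1 were closest to Lpl (0.98 and 0.97), Hsd17b12 and Crat to Slc27a1 (0.98 and 0.97), Dcaf7 and Abl1 to Lrp1 (0.93 and 0.92), and Nudt5 and Tmem170b to Vldlr (0.90 each). The closest to Fabp3 were Esyt1 and Eif3c (0.76 and 0.75), and Eif3c correlated with it at 0.942 in preadipocytes and at 0.561 in MEFs.

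DKO and WT cells were compared at each day to ask which genes differ when HMGN1 and HMGN2 are absent. Before differentiation the 9 tested genes did not differ past the threshold. In preadipocytes at day 0 edgeR called none of the 9, beside 0.218% of all genes, with 1 of the 9 (Lrp1) at an unadjusted p under 0.05 (7.86% of all genes) and none called by DESeq2 or limma-voom. In MEFs at day 0 it called none, beside 0.102% of all genes, with 3 of the 9 (Lpl, Fabp4 and Slc27a1) at an unadjusted p under 0.05 (9.28% of all genes), 1 called by DESeq2 and none by limma-voom. Without DKO replicate 1 edgeR called 2 of the 9 there.

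At day 3 in preadipocytes the DKO levels were higher for most of the pathway, without passing the threshold. Acsl1 was at 106, 374 and 292 CPM in WT libraries against 758, 1014 and 903 CPM in DKO libraries, a log2 difference of 1.79 ± 0.44 (adjusted p = 0.185 in edgeR's quasi-likelihood test). Fabp5 was at 48.9, 151 and 157 CPM in WT libraries against 297, 453 and 447 CPM in DKO libraries (1.75 ± 0.45, adjusted p = 0.200). Cd36 was at 38.8, 182 and 148 CPM in WT libraries against 327, 534 and 373 CPM in DKO libraries (1.74 ± 0.55, adjusted p = 0.280). In each of them WT replicate 1 was the lowest library and the groups did not overlap. Slc27a1 (1.52 ± 0.28), Fabp4 (1.49 ± 0.49) and Lpl (0.97 ± 0.48) were likewise without overlap and not called, while Vldlr (0.37 ± 0.23), Lrp1 (0.10 ± 0.12) and Fabp3 (-0.19 ± 0.52) overlapped. Thus 6 of the 9 had all DKO libraries above all WT libraries, beside 11.4% of all genes tested. EdgeR called none of the 9, beside 0.337% of all genes, 5 of the 9 had an unadjusted p under 0.05 (12.2% of all genes), DESeq2 called 4 and limma-voom none. The adipocyte markers moved with these genes, at 308 to 951 CPM in WT libraries against 1785 to 2349 CPM in DKO libraries, and their part in the differences was not tested. In these bulk libraries more cells that express a gene and more RNA of it per cell cannot be told apart.

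At day 6 in preadipocytes 2 of the 9 genes were called, Fabp3 and Fabp5, both higher in DKO cells, beside 11.6% of all genes called in either direction and 5.03% called higher. Fabp3 was 2.31 to 3.46 CPM in WT libraries against 7.45 to 12.1 CPM in DKO libraries, a log2 difference of 1.91 ± 0.25 (adjusted p = 0.0039). It was called in all 12 alternatives. Fabp5 was at 1701, 2224 and 1644 CPM in WT libraries against 2929, 3664 and 2948 CPM in DKO libraries, a difference of 0.77 ± 0.15 (adjusted p = 0.0106). The groups did not overlap for either gene, but Fabp5 was no longer called without WT replicate 3, and without WT replicate 2 the count of calls was 3. Fabp4 was at 10156, 12632 and 9863 CPM in WT libraries against 14695, 17597 and 15682 CPM in DKO libraries, 0.55 ± 0.14 higher with an adjusted p of 0.0285, which is under 1.5-fold. With quantile normalization, which gives equal values to a gene of the same rank in every library, the Fabp4 difference was 0 by construction. The rest were not called, with Slc27a1 at 0.37 ± 0.22, Cd36 at 0.34 ± 0.13, Vldlr at 0.31 ± 0.10, Lpl at 0.17 ± 0.13, Acsl1 at 0.13 ± 0.18 and Lrp1 at -0.34 ± 0.12. Without DKO replicate 2, the highest Acsl1 library, the Acsl1 difference was -0.10. The median over the 9 was 0.34, beside -0.01 over all genes tested.

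At day 9 the signs of the differences were those of day 6 and edgeR called none of the 9, beside 1.24% of all genes, while 7 of the 9 had an unadjusted p under 0.05 (27.1% of all genes), DESeq2 called 1 and limma-voom none. Fabp3 had the largest difference, 2.04 ± 0.47 (adjusted p = 0.0628 by edgeR), between WT libraries of 0.781 to 1.11 CPM and DKO libraries of 1.71 to 5.59 CPM. DKO replicate 2 was the low one, and without it 2 of the 9 were called. Cd36 differed by 0.43 ± 0.08 with an adjusted p of 0.0462 by edgeR, under 1.5-fold. Fabp5 (0.54 ± 0.12), Acsl1 (0.44 ± 0.10), Fabp4 (0.41 ± 0.12), Lpl (0.40 ± 0.11) and Vldlr (0.27 ± 0.09) did not overlap and were not called, and Slc27a1 (0.15 ± 0.14) and Lrp1 (-0.28 ± 0.14) overlapped. Of the 9, 7 had all DKO libraries above all WT libraries, beside 22.5% of all genes. The adipocyte markers were apart as well, at 13880 to 14659 CPM in WT libraries against 17046 to 19820 CPM in DKO libraries. The macrophage markers summed to 3758 to 7670 CPM against 1645 to 3857 CPM, and edgeR called none of the 12 while 11 had an unadjusted p under 0.05, with a median difference of -1.20. The part of either in these differences was not tested.

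MEFs at days 4 and 8 gave wide intervals. The log2 differences ran from -0.40 ± 0.32 (Vldlr) to 1.04 ± 0.92 (Acsl1) at day 4 and from -0.15 ± 0.15 (Lrp1) to 1.23 ± 0.65 (Fabp3) at day 8. All 9 genes overlapped between the genotypes on both days, while 11.6% and 15.6% of all genes did not. EdgeR, DESeq2 and limma-voom called none of them, and none had an unadjusted p under 0.05 (5.91% and 8.57% of all genes), beside 0.0905% of all genes called by edgeR at day 4 and 0.0595% at day 8.

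At day 12 in MEFs the replicates were closest and 7 of the 9 genes were called, 6 higher and 1 lower in DKO cells, beside 7.98% of all genes called, 3.92% higher and 4.05% lower. Slc27a1 was at 256, 245 and 242 CPM in WT libraries against 430, 497 and 441 CPM in DKO libraries, 0.89 ± 0.05 higher (adjusted p = 1.36e-08 in edgeR's test). Fabp5 was at 612, 634 and 640 CPM in WT libraries against 1123, 1130 and 1151 CPM in DKO libraries, 0.86 ± 0.04 higher (adjusted p = 5.84e-10). Acsl1 was 0.77 ± 0.05 higher, between 1851 to 1879 CPM and 3016 to 3408 CPM. No library of one genotype reached into the other for any of the 9 genes. The share of all genes without overlap on this day is not given here, so this separation carries no baseline. Fabp4 (0.66 ± 0.05, from 6558 ± 197 to 10330 ± 365 CPM), Vldlr (0.61 ± 0.09) and Cd36 (0.61 ± 0.05) were called as well, the last pair just above 1.5-fold. Lpl, at 0.45 ± 0.05 (adjusted p = 3.10e-06 by edgeR), and Lrp1, at -0.36 ± 0.05 (adjusted p = 3.20e-05 by edgeR), passed the p threshold at less than 1.5-fold.

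Fabp3 was the gene called lower at day 12 in MEFs, at 7.98, 6.13 and 6.49 CPM in WT libraries against 3.12, 3.46 and 3.50 CPM in DKO libraries. The difference was -1.02 ± 0.16 (adjusted p = 0.000101 in edgeR's test), opposite in sign to that at day 6 in preadipocytes. Within MEFs the Fabp3 difference was 1.01 ± 1.08 at day 4 and 1.23 ± 0.65 at day 8, with overlap and no call, and the DKO effect at day 12 against day 8 was -2.26 ± 0.65 (edgeR adjusted p = 0.442). The difference between the DKO effects at preadipocyte day 6 and MEF day 12, tested as an interaction of genotype and cell type in a comparison added after the data were seen, was 2.98 ± 0.29 (edgeR adjusted p = 0.000253), beside 1.59% of all genes called. EdgeR called none of the other 8 tested genes there, 1 of which (Acsl1) had an unadjusted p under 0.05, while limma-voom also called Acsl1. Between preadipocytes at day 9 and MEFs at day 12 the difference for Fabp3 was 3.08 ± 0.50 (edgeR adjusted p = 0.022, limma-voom adjusted p = 0.064), beside 0.433% of all genes called. EdgeR called none of the other 8 there, of which 4 had an unadjusted p under 0.05, and DESeq2 and limma-voom called Slc27a1. Calls of Fabp4 by limma-voom in these comparisons are set aside, since quantile normalization fixes its preadipocyte difference at 0. Cell type, day, medium schedule and table differ together between these groups and cannot be told apart. The calls at day 12 used the spread of the day 12 libraries alone, and with 1 spread shared by all days of the MEF course, in which the replicates of days 4 and 8 lie far apart, none of the 9 was called. The median difference of the 9 was 0.61 beside 0.00 over all genes tested.

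**Figure D3:**
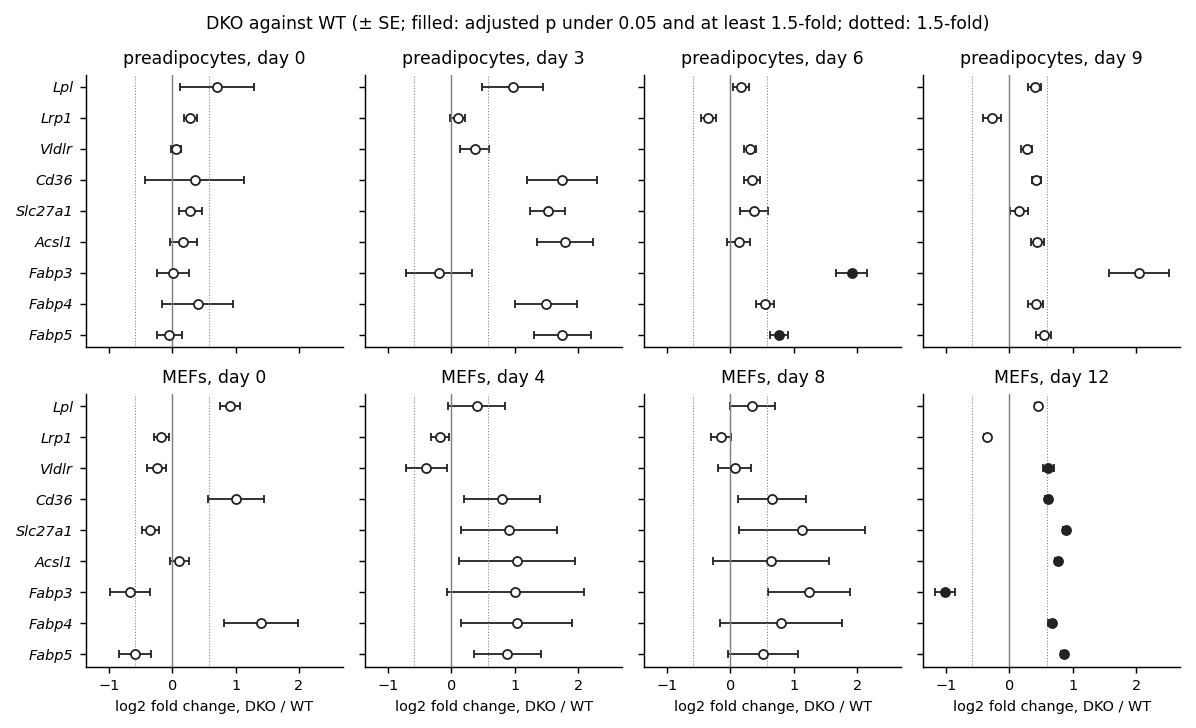
Log2 fold change of DKO against WT cells for 9 genes in each cell type and day, with bars of 1 SE, filled points where the adjusted p was under 0.05 and the fold change at least 1.5, and dotted lines at 1.5-fold. Filled points are Fabp3 and Fabp5 in preadipocytes at day 6, and 7 genes in MEFs at day 12, where Fabp3 is the one on the left.

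Between days, the DKO effect was tested as an interaction. In MEFs the effect at day 12 exceeded that at day 0 for 3 of the 9 genes, Fabp5 (1.48 ± 0.28), Slc27a1 (1.27 ± 0.15) and Vldlr (0.89 ± 0.18), with adjusted p of 0.0237, 0.00396 and 0.0271 from edgeR beside 1.42% of all genes called and 1.17% called higher. For all 3 genes the 2 days had opposite signs. The day 0 differences were -0.59 ± 0.26 for Fabp5, -0.34 ± 0.13 for Slc27a1 and -0.25 ± 0.15 for Vldlr, none of them called. At day 0 the genotypes were apart for Slc27a1 and overlapped for Vldlr and Fabp5, the last with DKO libraries at 110 to 192 CPM and WT libraries at 183 to 266 CPM. Of these, Slc27a1 was called in all 17 alternatives, and Fabp5 and Vldlr were each lost in 12 of the 17, including the fit with the replicate number as a block. Without DKO replicate 1 at day 0 the count was 5, and 8 other left-out libraries gave 1. In preadipocytes no interaction between neighbouring days or between days 9 and 0 was called by edgeR or limma-voom for any of the 9, beside 0.0125%, 0.319%, 0% and 0.0555% of all genes for day 3 against day 0, day 6 against day 3, day 9 against day 6 and day 9 against day 0. An unadjusted p under 0.05 was found for 3, 5, 0 and 3 of the 9 in that order, beside 6.23%, 15%, 5.5% and 15.8% of all genes. DESeq2 called 3 of the 9 for day 6 against day 3, and without DKO replicate 2 at day 9 edgeR called 2 for day 9 against day 0. In MEFs between neighbouring days none was called by edgeR, DESeq2 or limma-voom, with 1, 0 and 1 of the 9 at an unadjusted p under 0.05 for days 4, 8 and 12 (7.21%, 2.31% and 7.6% of all genes), and 0% of all genes were called by edgeR.

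The general adipocyte markers moved with genotype as well. Their sum was 8557 to 11911 CPM in WT and 12867 to 17071 CPM in DKO preadipocytes at day 6, with 6 of 17 tested markers called higher and none lower beside 5.03% of all genes called higher, and 10952 to 11196 against 17210 to 18372 CPM in MEFs at day 12, with 12 of 18 called higher and none lower beside 3.92% of all genes. Dgat2 (1.31 ± 0.12), Slc2a4 (1.01 ± 0.15) and Plin4 (0.81 ± 0.14) had the smallest p at day 6, and Slc2a4 (0.82 ± 0.04), Adipoq (0.78 ± 0.04) and Gpd1 (0.71 ± 0.04) at MEF day 12. Each gene was therefore also set against that sum within each library, as a description added after the data were seen. Relative to the sum, Fabp4 in DKO and WT cells differed by -0.00 on the log2 scale in preadipocytes at day 6 and by -0.02 in MEFs at day 12, and the genotypes overlapped on both. Vldlr differed by -0.24 and -0.08 and also overlapped on both. The genotypes were apart on both days for Lpl (-0.39 and -0.23), Acsl1 (-0.45 and 0.08), Fabp5 (0.22 and 0.18), Lrp1 (-0.89 and -1.04) and Fabp3 (1.17 and -1.60). Cd36 (-0.22 and -0.08) and Slc27a1 (-0.19 and 0.20) overlapped in preadipocytes and were apart in MEFs. The share of all genes apart by this measure is not given here, so these separations carry no baseline. At day 9 in preadipocytes Fabp5 (0.18), Lpl (0.04) and Acsl1 (0.09) overlapped.

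**Figure D4:**
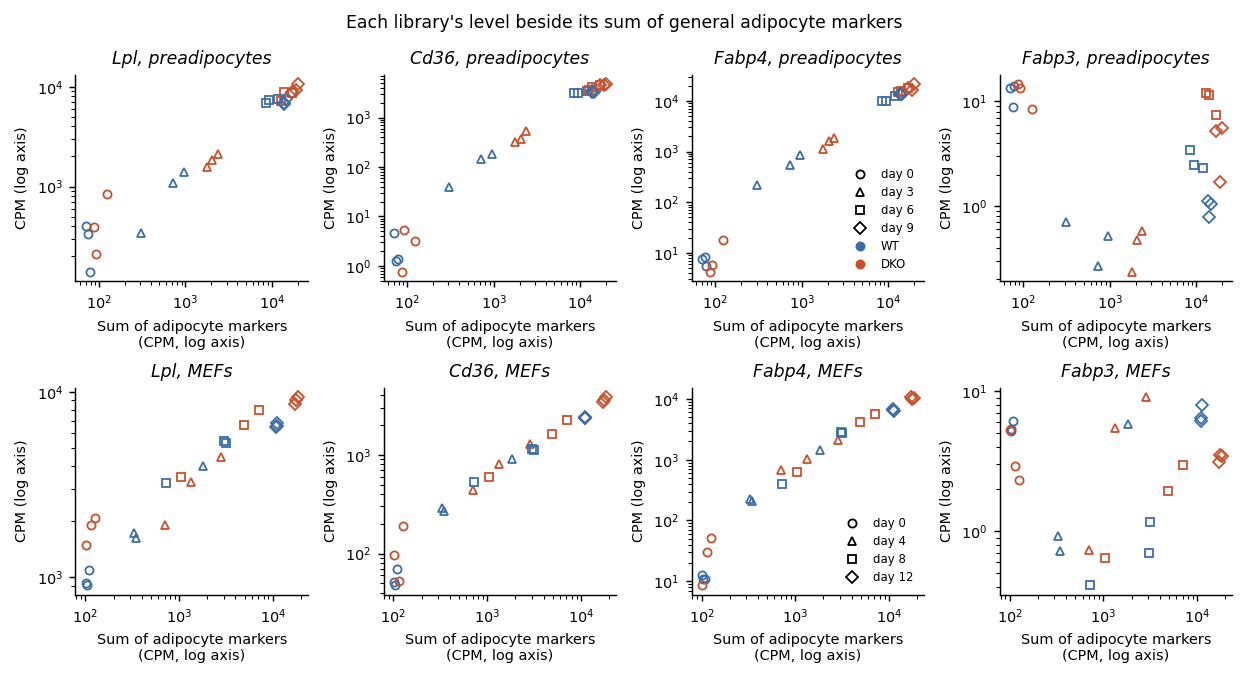
CPM of Lpl, Cd36, Fabp4 and Fabp3 in each library against the summed CPM of 18 general adipocyte markers of the same library, both on log axes, with symbols for days and colours for genotypes (blue for WT, red for DKO). Past day 0, Lpl, Cd36 and Fabp4 climb with the marker sum, Lpl with a DKO minus WT difference of -0.39 relative to that sum (log2) in preadipocytes at day 6, and Fabp3 does not climb with it, with DKO libraries above WT libraries at days 6 and 9 in preadipocytes and below them at day 12 in MEFs.

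Markers of other cells moved with genotype on the same days. Macrophage markers, led by Lyz2, summed to 7670 to 12675 CPM in WT and 2574 to 6124 CPM in DKO preadipocytes at day 6, with all 12 detected, and to 5954 to 5989 against 3869 to 4449 CPM in MEFs at day 12. Lyz2 itself was lower in DKO cells by 1.45 ± 0.30 and 0.64 ± 0.06 on the log2 scale. Fibroblast and progenitor markers, led by Col3a1, summed to 10332 to 12037 against 3566 to 5156 CPM and to 15720 to 16279 against 8959 to 9948 CPM. Col3a1 itself differed by -1.75 ± 0.19 and -1.0 ± 0.05, and Dlk1 by 1.20 ± 0.24 and -0.87 ± 0.05. Of 6 endothelial markers tested at day 6 edgeR called none, beside 11.6% of all genes called. None had an unadjusted p under 0.05, beside 37.2% of all genes. At MEF day 12 edgeR called 2 of 7 lower, Tek (-1.22 ± 0.17) and Cdh5 (-0.62 ± 0.19), beside 4.05% of all genes called lower. Of the muscle markers, Myh3 was called higher in DKO MEFs at day 12 (2.11 ± 0.67), 1 of 4 tested, beside 3.92% of all genes called higher. Mb, the oxygen-binding protein of muscle, was called higher in DKO preadipocytes at day 6 (2.95 ± 0.36). It was 1 of 2 tested, beside 5.03% of all genes called higher, in a list that summed to at most 5.02 CPM there. The part of these cells in the differences of the fatty acid genes was not tested. Ucp1, the uncoupling protein of thermogenic fat, was at 9.6 ± 1.57 CPM in WT and 50.2 ± 7.25 CPM in DKO preadipocytes at day 6 (log2 difference 2.38 ± 0.14), and at 0.919 ± 0.152 and 1.85 ± 0.305 CPM in MEFs at day 12 (1.01 ± 0.29), while Pparg differed by 0.45 ± 0.11 and 0.58 ± 0.06, under 1.5-fold.

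The make-up of the FABP transcripts passed from Fabp5 to Fabp4. Of the reads per kilobase of Fabp3, Fabp4 and Fabp5 together, Fabp4 held 14.0% ± 3.5 (SD, n = 3) in WT and 17.2% ± 13.0 in DKO preadipocytes at day 0, while Fabp5 held 60.1% ± 4.73 and 57.3% ± 5.62 and Fabp3 25.9% ± 6.22 and 25.5% ± 8.76. At day 6 Fabp4 held 86.6% ± 0.348 in WT and 84.7% ± 0.650 in DKO cells, and at day 9 90.1% ± 0.586 and 89.2% ± 0.235. MEFs ended alike, with 91.9% ± 0.118 in WT cells at day 12 and 90.9% ± 0.400 in DKO cells, from 5.69% ± 1.3 and 19.9% ± 14.6 at day 0. The DKO share of Fabp4 was lower in every library than the WT share at day 6, day 9 and MEF day 12, each with an exact permutation p of 0.1 (two-sided), the smallest that 3 against 3 libraries can give. In MEFs at days 4 and 8 the mean share was higher in DKO cells, at 75.5% against 68.9% and 80.0% against 75.7%, with exact permutation p of 0.3 and 0.5. The Fabp5 share mirrored that of Fabp4, since the 3 shares make up the whole. It was higher in DKO cells at preadipocyte days 6 and 9 and MEF day 12, at 15.3% against 13.4%, 10.7% against 9.92% and 9.07% against 8.00%. Its mean was lower in DKO MEFs at days 4 and 8, at 24.2% against 30.8% and 20.0% against 24.3%.

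**Figure D5:**
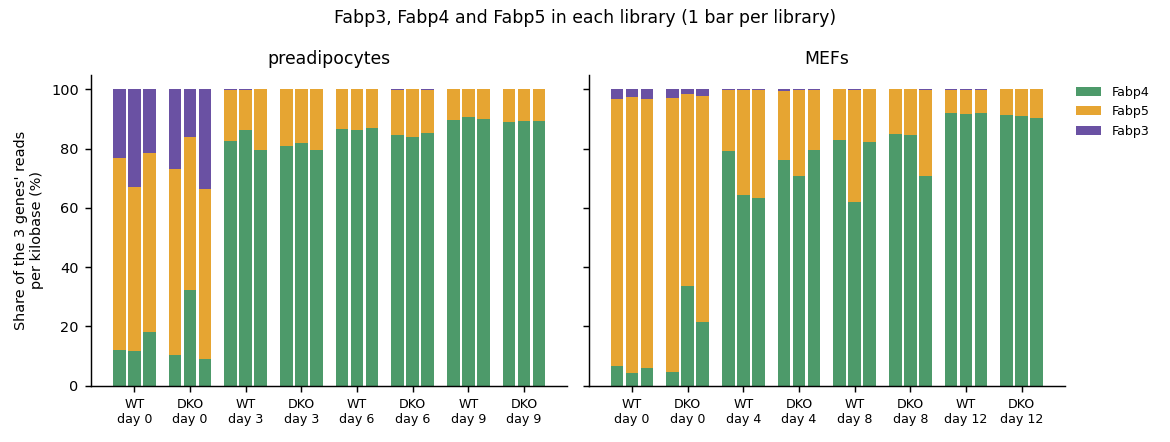
Shares of Fabp4 (green), Fabp5 (orange) and Fabp3 (purple) in the reads per kilobase of these 3 genes (percent), 1 bar per library. Fabp3 is visible mainly at day 0 of the preadipocytes, and Fabp4 fills 84.1% or more of each preadipocyte bar at days 6 and 9.

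Other genes of the same steps were counted from fixed lists. Of 14 tested partners of lipoprotein lipase, 4 were called higher and 2 lower in DKO preadipocytes at day 6, and 3 higher and 1 lower in DKO MEFs at day 12, beside 11.6% and 7.98% of all genes called on those days. Apoc1, an apolipoprotein, was higher on both days (2.58 ± 0.18 and 0.69 ± 0.06), as was Apoc3, an inhibitor of the lipase (1.41 ± 0.35 and 1.05 ± 0.12). Apoc2, its required cofactor, was lower on both days, at -2.28 ± 0.38 and -1.45 ± 0.13. Angptl8 (1.54 ± 0.25) and Pcsk6 (0.85 ± 0.10) were higher at day 6 in preadipocytes. At day 3 in preadipocytes 2 of 11 tested partners were called higher, Apoe and Apoc1, beside 0.337% of all genes called. At day 9, 2 of 14 were called higher and 1 lower, beside 1.24% of all genes called. The genes called at day 9 were Apoc1, Apoc2 and Lipg, named in order of p and not of direction. The list medians of 0.34 at day 6 and 0.20 at MEF day 12 stood beside -0.01 and 0.00 over all genes tested.

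Of 15 tested genes of the LDL receptor family, 1 was called at day 6 in preadipocytes (Sorl1, 1.38 ± 0.17), fewer in proportion than the 11.6% of all genes called then. EdgeR called none of them at day 12 in MEFs, where 8 had an unadjusted p under 0.05, beside 42.3% of all genes. Among other acyl-CoA synthetases, SLC27 proteins and thioesterases, 4 of 15 were called higher at day 6, beside 5.03% of all genes called higher, among them Acot2, a mitochondrial acyl-CoA thioesterase (1.69 ± 0.18), Acss2, the cytosolic acetyl-CoA synthetase (1.06 ± 0.17), and Acot13 (0.74 ± 0.13). At MEF day 12 it was 2 higher and 1 lower of 16, beside 3.92% and 4.05% of all genes, led by Acss3, a further acetyl-CoA synthetase family member (0.75 ± 0.05), and Acot2 was again higher (0.71 ± 0.14), with Slc27a6 lower (-0.61 ± 0.20). Caveolar and CD36-handling genes gave 1 of 13 higher at day 6 and 2 of 13 at MEF day 12, beside the same 5.03% and 3.92% of all genes, with the lipoprotein receptor Scarb1 at 0.61 ± 0.11 and 0.61 ± 0.06 and the caveolin Cav2 at 0.61 ± 0.05 in MEFs. The other members of the FABP family, which bind retinoids or fatty acids, gave no call in edgeR's test among 2 tested at day 6, 1 of them with an unadjusted p under 0.05 (37.2% of all genes). In MEFs at day 12 the calls included Crabp2 at -1.54 ± 0.12, Crabp1 at -1.19 ± 0.26 and Fabp7 at -1.07 ± 0.20, all 3 lower in DKO cells, the same direction as Fabp3. In MEFs at days 0, 4 and 8 and in preadipocytes at day 0 edgeR called no gene of these 5 lists, and each list held 0 to 4 genes with an unadjusted p under 0.05.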

How the data were processed

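Per the methods and the submitters' processing notes, adapters were removed with cutadapt 1.18, STAR 2.7.0f placed the read pairs on mm10, and RSEM 1.3.0 turned them into gene totals. The authors deposited these expected counts without normalization, as 1 table for preadipocytes and 1 for MEFs, 24 libraries each. RSEM divides reads that match several genes, so values need not be whole, and they were rounded here. The labels call the RNA polyA and the methods name a total RNA kit. Totals were 19809397 to 36006696 counts in preadipocytes (median 23978863.5) and 18962483 to 33083213 in MEFs (median 23901661.5). PCR copies cannot be told apart, so counts describe reads and not molecules.

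With R 4.3.3 and edgeR 4.0.16, genes were filtered with filterByExpr, scaled by TMM and tested with the robust quasi-likelihood test over all genes. Calls needed an adjusted p (Benjamini-Hochberg) below 0.05 together with a 1.5-fold change or more. DKO and WT cells were compared in the 6 libraries of a day, days in the 12 libraries of a genotype, and DKO effects as interactions in 12 libraries. SE is the log2 fold change divided by the root of F. Logarithms of CPM for correlations and marker-relative levels used 0.5 CPM as prior. Shares of Fabp3, Fabp4 and Fabp5 were compared with exact permutation tests. All 10 genes are described, and other genes were named as the 3 called genes of a list with the smallest p at preadipocyte day 6 and MEF day 12, while Apoe and Lipg lie outside that rule and were named after their values were seen. Some results for other genes are not reported here. The genes and lists were chosen with earlier results of these data known.

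The alternatives were DESeq2 1.42.0, limma-voom (limma 3.58.1) with quantile normalization, library size only, no filter, no fold change threshold, 1 fit over all days, a block for replicate number, and omission of single libraries. Same-numbered DKO preadipocyte libraries of neighbouring days deviated together from their group means at days 0 and 3 (correlations 0.47 to 0.62) and days 6 and 9 (0.47 to 0.51), as did WT libraries at days 6 and 9 (0.15 to 0.52), so the blocked values stand beside those steps where they change a call. The tests were checked on simulated counts with 200 genes changed 4-fold and the same spread for all genes and libraries. All changed genes were called. In the DKO against WT design 6.54% of calls were false by edgeR, 4.76% by DESeq2 and 3.38% by limma-voom. The check does not cover changes near 1.5-fold or a spread that differs between genes or libraries.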

Additional observations from a re-analysis of the deposited data

Results flagged for a closer look

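The DKO effect differed between groups of libraries in 5 tests, all of them interactions fitted across all genes with edgeR. In MEFs the log2 difference of DKO and WT cells was larger at day 12 than at day 0 for Fabp5 by 1.48 ± 0.28 (adjusted p = 0.0237), for Slc27a1 by 1.27 ± 0.15 (adjusted p = 0.00396) and for Vldlr by 0.89 ± 0.18 (adjusted p = 0.0271), beside 1.42% of all genes called and 1.17% called higher. Each of these genes had a negative difference at day 0 and a positive one at day 12. Slc27a1 kept its call in all 17 alternatives, while Fabp5 and Vldlr each lost it in 12 of the 17, limma-voom and the replicate block among them. The other 6 tested genes of the 10 were not called in that test. For Fabp3 the effect in preadipocytes exceeded that in MEFs at day 12 by 2.98 ± 0.29 at day 6 (edgeR adjusted p = 0.000253) and by 3.08 ± 0.50 at day 9 (edgeR adjusted p = 0.022), beside 1.59% and 0.433% of all genes called. The second was not called by limma-voom (adjusted p = 0.064). The levels behind the first were 2.31 to 12.1 CPM in preadipocytes at day 6 and 3.12 to 7.98 CPM in MEFs at day 12. Both Fabp3 comparisons were added after the data were seen, and cell type, day, medium and table cannot be told apart in them.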

How the results depend on the processing

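Counts below are of the 9 tested genes called. DKO against WT, DESeq2 gave 1 instead of 0 in MEFs at day 0, 4 instead of 0 in preadipocytes at day 3 and 1 instead of 0 at day 9. With all days in 1 fit it was 0 instead of 7 in MEFs at day 12, 3 instead of 0 in preadipocytes at day 3, 1 instead of 2 at day 6 and 1 instead of 0 at day 9. Without the fold change threshold it was 1 instead of 0 at day 9. Cd36 and Vldlr at MEF day 12, just above 1.5-fold, were also not called with limma-voom, with library size only or without DKO replicate 2. Between days, DESeq2 gave 2 instead of 1 (DKO MEFs, day 12 against 8), 1 instead of 0 (DKO preadipocytes, day 9 against 6), 3 instead of 5 (WT MEFs, day 4 against 0), 1 instead of 0 (WT MEFs, day 8 against 4) and 1 instead of 2 (WT preadipocytes, day 9 against 6). Limma-voom gave 0 instead of 1, 1 instead of 0 and 1 instead of 2 for the first, second and last of these. Library size only and no filter each gave 0 for the first, no filter 1 instead of 2 for WT MEFs, day 12 against 8, and no fold change threshold 1 for the second. For the DKO effect, limma-voom gave 1 instead of 3 (MEFs, day 12 against 0) and DESeq2 3 instead of 0 (preadipocytes, day 6 against 3). The causes of these changes were not tested.

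Some values of Fabp3 near 0 changed sign. Fabp3 at preadipocyte day 3 was 0.0193 by limma-voom (otherwise -0.19), and its change in DKO MEFs between days 0 and 12 was -0.028 by DESeq2, -0.20 by library size only and -0.00037 without a filter (otherwise 0.06). Fabp4 at preadipocyte days 6 and 9 was 0 by limma-voom (otherwise 0.55 and 0.41), where quantile normalization gives equal values to a gene at rank 3 in every library. Leaving out single libraries moved Fabp3 at day 3 between -0.51 and 0.16, Acsl1 at day 6 between -0.10 and 0.25, Slc27a1 at day 9 between -0.0213 and 0.27, the DKO effect of Cd36 (MEFs, day 12 against 0) between -0.73 and 0.21 and that of Fabp3 between -0.56 and 0.0624, and Fabp3 in DKO MEFs (day 12 against 0) between -0.16 and 0.47. The counts ranged from 0 to 2 in MEFs at day 0, from 1 to 3 and from 0 to 2 in preadipocytes at days 6 and 9, from 1 to 5 and from 0 to 2 for the DKO effect at the last day against day 0 in MEFs and preadipocytes, from 3 to 5, 0 to 1 and 0 to 1 for DKO MEFs at days 4, 8 and 12 against the time point before, from 0 to 7 and at 1 for WT MEFs at days 8 and 12, and from 0 to 1 and 1 to 2 for DKO and WT preadipocytes at day 9 against day 6. The DKO against WT values of single genes were counted for preadipocyte days 3, 6 and 9 and MEF day 12. There 205 with a library left out and 192 under other alternatives kept sign and call. Of the rest, 4 and 2 changed sign, 3 and 12 lost their call and 4 and 10 gained one. On the remaining days of both cell types 201 and 212 kept sign and call, 13 and 3 changed sign and 2 and 1 gained a call. Fabp3 at preadipocyte day 6 kept its call in all 12 alternatives, and the Fabp4 shares moved by less than the replicate spread in all 48 left-out libraries and 8 others.

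With the replicate number as a block, the count was 1 instead of 0 at preadipocyte day 3 (Slc27a1), 1 instead of 3 for the DKO effect in MEFs at day 12 against day 0, and 1 instead of 0 for DKO preadipocytes at day 9 against day 6 (Fabp3). Vldlr in DKO MEFs at day 4 against day 0 was lost. Whether WT and DKO libraries of a day, or MEF libraries of different days, share more than a number is not stated in the sources. Same-numbered WT and DKO libraries deviated from their group means with correlations of 0.48, 0.00 and 0.60 at preadipocyte day 3. At MEF day 8 these were 0.68, -0.50 and -0.73. Gpihbp1, with at most 6 counts in a library, could not be tested at this depth.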
